A study of Homo sapiens with 16 samples.

Results

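The genes described here encode 9 receptors through which blood cells and their precursors read cytokines and growth factors: *IL5RA*, *CSF2RB*, *CSF3R*, *CSF1R*, *KIT*, *FLT3*, *EPOR*, *IL6R* and *IL7R*. They were taken by gene name from the 60357 genes listed for each in vitro library, and 9 of 9 had a row. Transcripts were sequenced from Kasumi-1 and SKNO-1, which are established human lines of t(8;21)-positive acute myeloid leukaemia (AML) with the RUNX1/ETO (*RUNX1*-*RUNX1T1*) fusion gene. Cells of either line were exposed to lipid nanoparticles (LNPs) at 2 µg/ml for 24 h, and RNA was taken on day 3. The particles carried a chemically modified siRNA, either siRE-mod, directed against the fusion transcript, or its mismatch control siMM-mod, so every library comes from cells that received particles and an siRNA. Each line has 3 libraries labelled siMM-mod and 3 labelled siRE-mod. SKNO-1 cells were kept in GM-CSF, a ligand of the receptor that contains the *CSF2RB* chain, and Kasumi-1 cells were not. Each line is a model from a single leukaemia, and the labels do not say whether replicates were separate cultures, so p-values may measure technical spread.

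Cytokine receptors fall into structural families. Type I receptors such as CSF3R, EPOR, IL6R, IL7R, IL5RA and CSF2RB lack a kinase of their own and signal through Janus kinases and STAT transcription factors, often as a ligand-specific chain paired with a shared signalling chain. KIT, FLT3 and CSF1R are receptor tyrosine kinases of a common class and bear the kinase in the same protein. In the bone marrow, KIT and FLT3 are best known from stem and progenitor cells, CSF3R from neutrophil precursors, CSF1R from monocytes and macrophages, EPOR from erythroid precursors, IL5RA from eosinophils and IL7R from lymphoid precursors.

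Library depth on genes ranged from 60559466 to 147990959 counts. The siRNA labels did not separate the libraries by the targeted transcript. In the libraries labelled Kasumi-1, *RUNX1T1* was at 297, 92.9 and 161 normalised CPM (counts scaled to a common library size, here with TMM factors) in siMM-mod replicates 1, 2 and 3, and at 44.4, 159 and 37.3 in siRE-mod. In those labelled SKNO-1 it was at 329, 298 and 127 in siMM-mod and at 124, 165 and 40.4 in siRE-mod. Both pairs of groups overlap, and the log2 fold change was −1.19 ± 0.71 (SE, adjusted p = 0.392) for the Kasumi-1 labels and −1.19 ± 0.57 (adjusted p = 0.491) for the SKNO-1 labels in edgeR's quasi-likelihood test. *CD34*, the surface marker of immature haematopoietic cells, was also at odds with the labels, since it lay between 117 and 421 normalised CPM in 6 libraries and between 0.108 and 0.627 in the other 6. Every direction given between labels is therefore a direction between the libraries labelled so. Whether labels were exchanged between libraries was not tested, and if they were, the values by label do not compare the siRNAs or the lines.

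The libraries are for this reason also read by *CD34* and then by *RUNX1T1*, each divided at its widest gap, which leaves 3 libraries in each of 4 sets. The CD34-expressing, RUNX1T1-high set holds the libraries labelled SKNO-1 siMM-mod 1, SKNO-1 siMM-mod 2 and Kasumi-1 siMM-mod 1. The CD34-expressing, RUNX1T1-low set holds SKNO-1 siMM-mod 3, SKNO-1 siRE-mod 1 and Kasumi-1 siMM-mod 2. SKNO-1 siRE-mod 2, Kasumi-1 siMM-mod 3 and Kasumi-1 siRE-mod 2 make up the CD34-silent, RUNX1T1-high set, and Kasumi-1 siRE-mod 1, SKNO-1 siRE-mod 3 and Kasumi-1 siRE-mod 3 the CD34-silent, RUNX1T1-low set. Values are given below in this order of sets and of libraries. The sets were drawn from the data and are not groups of the study, so they are described by single values and ranges and were not tested. Of the 6 CD34-silent libraries, 4 are labelled Kasumi-1 and 2 SKNO-1. Pearson's r of log2 CPM across 15863 genes, which are not independent replicates, ranged from 0.976 to 0.996 between libraries of the same set and from 0.801 to 0.995 between libraries of the same label. Between libraries on the same *CD34* side but in different sets it was 0.955 to 0.977, which overlaps the range within sets. Kasumi-1 siMM-mod 2 was as close by r to the RUNX1T1-high libraries of its side (0.975 to 0.977) as to its own set (0.976). Across the *CD34* divide r was 0.798 to 0.837. By a chi-square comparison of their counts, no pair of libraries agreed within sampling noise, so each was counted once.

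Most of the receptor genes lay at different levels on the 2 sides of the *CD34* divide. Between CD34-silent and CD34-expressing libraries, the ranges of 8 of 9 members did not overlap: *IL5RA*, *CSF2RB*, *FLT3* and *IL7R* were higher in the CD34-silent libraries, *CSF3R*, *CSF1R*, *KIT* and *EPOR* were lower, and *IL6R* overlapped. Over all 15863 genes with at least 600 reads, 33.1% had ranges that did not overlap in the same comparison. Between RUNX1T1-low and RUNX1T1-high libraries, 6 of 9 members did not overlap among the CD34-expressing libraries, beside 38.2% of all genes. *IL5RA*, *CSF1R* and *IL6R* were higher and *KIT*, *FLT3* and *EPOR* lower with low *RUNX1T1*, but *IL5RA* rests there on 0 to 12 reads, and *EPOR* overlapped in CPM as deposited. Among the CD34-silent libraries 8 of 9 did not overlap, beside 43.3% of all genes, with *IL5RA*, *CSF2RB* and *IL7R* higher and *CSF3R*, *CSF1R*, *KIT*, *FLT3* and *IL6R* lower with low *RUNX1T1*. Within a set, the highest of the 3 libraries was 1.06 to 1.70 times the lowest for the 7 members other than *IL5RA* and *IL7R*, which had few or no reads in some sets.

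**Figure D1:**
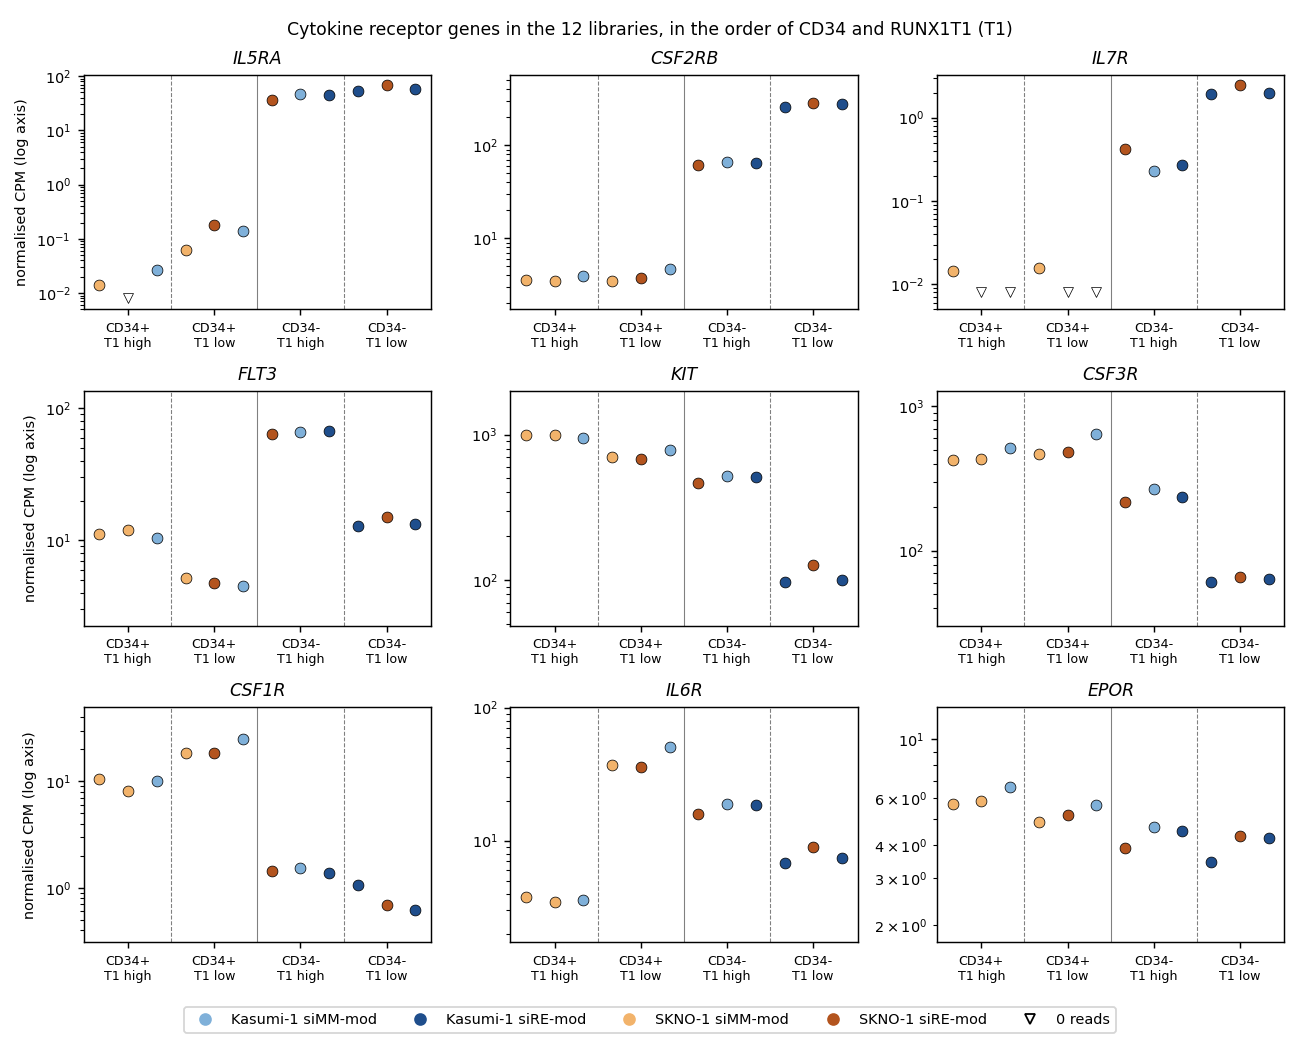
Normalised CPM (log axis) of the 9 receptor genes in each of the 12 libraries, in the order of *CD34* and then *RUNX1T1* (T1), with CD34+ for the CD34-expressing and CD34- for the CD34-silent libraries; colour gives the label and open triangles mark libraries with 0 reads. *IL5RA* goes from at most 0.179 to at least 36.3 across the middle line, whereas *EPOR* stays between 3.45 and 6.61.

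The receptors for IL-5, GM-CSF and IL-3 share the signalling chain encoded by *CSF2RB*, which joins a ligand-binding alpha chain encoded by *IL5RA*, *CSF2RA* or *IL3RA*. *IL5RA* (ENSG00000091181.19, GRCh38 chr3:3066326-3126613, minus strand) had 1, 0 and 2 reads in the CD34-expressing, RUNX1T1-high libraries and 4, 12 and 11 in the CD34-expressing, RUNX1T1-low libraries, which is at most 0.179 normalised CPM. The CD34-silent libraries had 36.3, 47.5 and 45.6 normalised CPM in the RUNX1T1-high set and 53.5, 68.0 and 58.4 in the RUNX1T1-low set. The gene was thus all but unread in the 6 CD34-expressing libraries and well expressed in the 6 CD34-silent ones, and the CD34-silent sets did not overlap each other either. A count of 3, taken here as the floor, corresponds to 0.0203 to 0.0495 CPM at the depths of these libraries, so the 3 lowest values lie under it. Of its 6600 exonic bases, 150 are shared with *CNTN4-AS1*, which had 0 to 9 reads in any library.

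By label, *IL5RA* was at 15.9 ± 27.4 normalised CPM (SD, n = 3) in Kasumi-1 siMM-mod and 52.5 ± 6.46 in siRE-mod, and these groups overlapped because siMM-mod replicate 3 was at 47.5. The log2 fold change was 1.75 ± 2.09 (SE, adjusted p = 0.651, edgeR's quasi-likelihood test). In SKNO-1 it was at 0.0257 ± 0.0329 in siMM-mod and 34.8 ± 33.9 in siRE-mod, without overlap, with a fitted log2 fold change of 10.34 ± 2.36 (adjusted p = 0.466, edgeR). That fitted value is set against libraries with 1, 0 and 4 reads, depends on the prior count and is no bound.

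*CSF2RB* (ENSG00000100368.14, chr22:36913628-36940439, plus strand) was low in every CD34-expressing library, at 3.61, 3.47 and 3.90 normalised CPM in the RUNX1T1-high set and 3.45, 3.80 and 4.64 in the RUNX1T1-low set. It was at 62.2, 65.9 and 64.7 in the CD34-silent, RUNX1T1-high libraries and at 258, 290 and 276 in the CD34-silent, RUNX1T1-low libraries. The CD34-silent sets stood apart by *RUNX1T1* for this gene, while the CD34-expressing sets overlapped. The log2 fold change between labels was 3.03 ± 1.29 in Kasumi-1 (SE, adjusted p = 0.293, edgeR), where the groups overlapped, and 5.05 ± 1.41 in SKNO-1 (adjusted p = 0.466, edgeR), where they did not.

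The other alpha chains varied less. *CSF2RA* and *IL3RA* lie in the pseudoautosomal region and are listed as 2 near-identical copies, between which the authors' counting divided the reads about equally, so their levels are uncertain and are given as the sum of both copies. *CSF2RA*, the GM-CSF-binding chain, was at 5.08 to 7.26 and 10.5 to 11.0 normalised CPM in the CD34-expressing RUNX1T1-high and RUNX1T1-low libraries, and at 15.2 to 18.9 and 26.7 to 29.1 in the CD34-silent ones. *IL3RA*, the IL-3-binding chain, was at 9.91 to 11.2, 8.22 to 15.2, 13.9 to 18.6 and 24.9 to 32.4 in the same order. The level of *CSF2RA* was higher from each set to the next, with no overlap between neighbours, but *IL3RA* overlapped between neighbouring sets among the first 3.

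Levels of different genes can be compared only per length, as FPKM (CPM divided by the exonic length in kilobases). The *CSF2RB* level in FPKM was 0.0825 to 0.104 times the summed level of the 3 alpha chains in the CD34-expressing, RUNX1T1-high libraries and 0.0594 to 0.122 times in the CD34-expressing, RUNX1T1-low libraries. It was 0.585 to 0.683 times in the CD34-silent, RUNX1T1-high libraries and 1.57 to 1.80 times in the CD34-silent, RUNX1T1-low libraries. By these values the shared chain exceeded its alpha chains in transcript level in 3 libraries, those labelled Kasumi-1 siRE-mod 1, Kasumi-1 siRE-mod 3 and SKNO-1 siRE-mod 3. The sum includes *CSF2RA* and *IL3RA*, whose levels are uncertain for the reason given above, so the ratios are uncertain too.

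Among the receptor tyrosine kinases, *KIT*, the receptor of stem cell factor, was the most abundant. *KIT* (ENSG00000157404.15, chr4:54657918-54740715, plus strand) was at 999, 994 and 945 normalised CPM in the CD34-expressing, RUNX1T1-high libraries and at 696, 682 and 787 in the CD34-expressing, RUNX1T1-low libraries. The CD34-silent libraries had 465, 516 and 510 in the RUNX1T1-high set and 97.0, 126 and 100 in the RUNX1T1-low set. The 4 sets followed each other downwards without overlap. By label, *KIT* in normalised CPM was lower in siRE-mod than in siMM-mod in both lines without overlap. In Kasumi-1 the gap was narrow, between 516 in siMM-mod replicate 3 and 510 in siRE-mod replicate 2. In CPM as deposited these libraries were at 482 and 556, so the Kasumi-1 groups overlapped. The log2 fold change was −1.67 ± 0.74 in Kasumi-1 (SE, adjusted p = 0.302, edgeR) and −1.07 ± 0.57 in SKNO-1 (adjusted p = 0.513, edgeR).

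*FLT3* (ENSG00000122025.14, chr13:28003274-28100592, minus strand), the receptor of FLT3 ligand, was at 11.1, 12.1 and 10.4 normalised CPM in the CD34-expressing, RUNX1T1-high libraries and at 5.22, 4.74 and 4.52 in the CD34-expressing, RUNX1T1-low libraries. It stood highest in the CD34-silent, RUNX1T1-high libraries, at 64.1, 65.6 and 67.8, and was at 12.9, 15.1 and 13.4 in the CD34-silent, RUNX1T1-low libraries. *FLT3* was therefore lower with low *RUNX1T1* on both sides of the *CD34* divide. Between labels the groups overlapped in both lines, and the log2 fold change was 0.24 ± 1.15 in Kasumi-1 (SE, adjusted p = 0.915, edgeR) and 1.56 ± 0.90 in SKNO-1 (adjusted p = 0.537, edgeR). In Kasumi-1 its sign turned with any of 3 libraries left out, to −0.13 without siMM-mod replicate 1, −0.25 without siMM-mod replicate 2 and −1.01 without siRE-mod replicate 2.

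*CSF1R* (ENSG00000182578.13, chr5:150053291-150113372, minus strand), the receptor of the macrophage growth factor M-CSF, went with *RUNX1T1* in opposite directions on the sides of the divide. It was at 10.6, 8.07 and 10.2 normalised CPM in the CD34-expressing, RUNX1T1-high libraries and higher, at 18.7, 18.7 and 24.9, in the CD34-expressing, RUNX1T1-low libraries. In the CD34-silent libraries it was at 1.43, 1.54 and 1.38 in the RUNX1T1-high set and lower, at 1.05, 0.685 and 0.617, in the RUNX1T1-low set, from 59 to 179 reads. By label the log2 fold change was −3.59 ± 1.01 in Kasumi-1 (SE, adjusted p = 0.252, edgeR), where the groups did not overlap, and −0.83 ± 1.19 in SKNO-1 (adjusted p = 0.827, edgeR), where they did.

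The receptors that work as homodimers differed in how much they varied. *CSF3R* (ENSG00000119535.17, chr1:36466043-36483278, minus strand), the receptor of G-CSF, was at 422, 430 and 511 normalised CPM in the CD34-expressing, RUNX1T1-high libraries and at 469, 482 and 640 in the CD34-expressing, RUNX1T1-low libraries, which overlap. In CPM as deposited these sets did not overlap, at 367 to 483 and 494 to 545. It was at 219, 267 and 236 in the CD34-silent, RUNX1T1-high libraries and at 60.4, 66.0 and 63.3 in the CD34-silent, RUNX1T1-low libraries. *CSF3R* was thus lower with low *RUNX1T1* among the CD34-silent libraries, while the order among the CD34-expressing ones depended on the scaling. Between labels, *CSF3R* had a log2 fold change of −1.98 ± 0.66 in Kasumi-1 (SE, adjusted p = 0.253, edgeR), without overlap of the groups in normalised CPM, and −0.77 ± 0.64 in SKNO-1 (adjusted p = 0.667, edgeR), with overlap. In CPM as deposited the Kasumi-1 groups overlapped too, with siMM-mod replicate 3 at 250 and siRE-mod replicate 2 at 257.

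*EPOR* (ENSG00000187266.14, chr19:11377207-11384342, minus strand), the erythropoietin receptor, was the steadiest member. It was at 5.73, 5.85 and 6.61, at 4.91, 5.20 and 5.65, at 3.90, 4.68 and 4.51 and at 3.45, 4.33 and 4.26 normalised CPM in the 4 sets in order. The highest CD34-silent library was at 4.68 and the lowest CD34-expressing library at 4.91, and this gap was lost in CPM as deposited, where the CD34-silent libraries reached 4.92 and the CD34-expressing ones went down to 4.82. The log2 fold change between labels was −0.47 ± 0.25 in Kasumi-1 (SE, adjusted p = 0.357, edgeR) and −0.30 ± 0.31 in SKNO-1 (adjusted p = 0.752, edgeR).

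The remaining members bind interleukins together with a shared chain. *IL6R* (ENSG00000160712.13, chr1:154405193-154469450, plus strand), the IL-6-binding chain, was at 3.79, 3.45 and 3.56 normalised CPM in the CD34-expressing, RUNX1T1-high libraries and at 37.2, 35.8 and 50.4 in the CD34-expressing, RUNX1T1-low libraries. It was at 15.9, 18.9 and 18.5 in the CD34-silent, RUNX1T1-high libraries and at 6.74, 8.92 and 7.36 in the CD34-silent, RUNX1T1-low libraries. As with *CSF1R*, low *RUNX1T1* went with a higher level in CD34-expressing and a lower level in CD34-silent libraries. Its shared chain *IL6ST*, which encodes gp130, lay between 29.7 and 47.6 in all libraries. By label, the groups overlapped for *IL6R* in both lines. The log2 fold change of *IL6R* was −1.16 ± 0.93 in Kasumi-1 (SE, adjusted p = 0.512, edgeR) and 0.44 ± 1.05 in SKNO-1 (adjusted p = 0.907, edgeR), where the sign turned without siMM-mod replicate 1 (−0.02), siMM-mod replicate 2 (−0.03) or siRE-mod replicate 1 (−0.30).

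*IL7R* (ENSG00000168685.15, chr5:35852695-35879603, plus strand), the IL-7-binding chain, had 1, 0 and 0 reads in the CD34-expressing, RUNX1T1-high libraries and 1, 0 and 0 in the CD34-expressing, RUNX1T1-low libraries, all under the floor of 3. It was low but read in the CD34-silent libraries, at 0.422, 0.228 and 0.269 normalised CPM from 21 to 41 reads in the RUNX1T1-high set and at 1.93, 2.47 and 2.00 from 191 to 379 reads in the RUNX1T1-low set. Like *CSF2RB*, it was thus highest where *CD34* and *RUNX1T1* were both low. With 480 reads in Kasumi-1 and 422 in SKNO-1 it fell under the minimum of 600 reads in each line and was not tested between labels. Its partner chain *IL2RG*, the common gamma chain, was at 19.4 to 30.6 in all libraries, and *CRLF2*, with which IL7R forms the TSLP receptor, did not exceed 0.298 summed over its 2 pseudoautosomal copies.

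Ordered by FPKM, *KIT* was first of the 9 members in 9 libraries and *CSF2RB* in 3. In all 9 libraries outside the CD34-silent, RUNX1T1-low set, *KIT* came first, at 83.7 to 168 FPKM, and *CSF3R* second, at 26.0 to 64.7. In the CD34-silent, RUNX1T1-low libraries the order was *CSF2RB* at 60.1 to 61.5 FPKM, *KIT* at 20.0 to 23.5, *IL5RA* at 9.62 to 10.7 and *CSF3R* at 8.11 to 8.50, with no overlap between neighbours. *CSF1R* and *EPOR* exchanged ranks 4 and 5 among the CD34-expressing, RUNX1T1-high libraries, at 1.33 to 1.93 and 1.62 to 2.03 FPKM, and their order there cannot be told from the spread.

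The sequences before the start sites are shown for *CSF1R*, *IL7R* and *IL5RA*, which were low or near 0 on one side of the *CD34* divide and differ in the motifs they hold. RefSeq start sites (GRCh38.p14) were matched for 8 of 9 members, with 10 start sites in all, and the 250 bases before each were searched on both strands for 4 motifs. The letters searched were TGTGGT for RUNX factors, GAGGAA for PU.1 and other ETS factors, AGATAA for the family of GATA factors and TTGCNNAA for C/EBP factors. *CSF2RB* has no entry. Capitals mark the matches, and the sequences run 5′ to 3′ on the strand of the gene.
*CSF1R*, second start site, chr5:150086555-150086804, minus strand: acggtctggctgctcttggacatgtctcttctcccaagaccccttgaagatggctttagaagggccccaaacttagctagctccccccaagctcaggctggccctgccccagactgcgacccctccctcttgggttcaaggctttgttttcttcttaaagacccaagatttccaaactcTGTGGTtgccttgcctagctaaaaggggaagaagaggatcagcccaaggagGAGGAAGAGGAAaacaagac
*IL7R*, chr5:35856641-35856890, plus strand: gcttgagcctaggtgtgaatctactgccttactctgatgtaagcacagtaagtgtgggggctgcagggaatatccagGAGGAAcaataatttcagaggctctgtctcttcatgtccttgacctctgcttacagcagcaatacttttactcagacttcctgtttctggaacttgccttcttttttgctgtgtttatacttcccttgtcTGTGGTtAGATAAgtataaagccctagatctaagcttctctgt
*IL5RA*, chr3:3110375-3110624, minus strand: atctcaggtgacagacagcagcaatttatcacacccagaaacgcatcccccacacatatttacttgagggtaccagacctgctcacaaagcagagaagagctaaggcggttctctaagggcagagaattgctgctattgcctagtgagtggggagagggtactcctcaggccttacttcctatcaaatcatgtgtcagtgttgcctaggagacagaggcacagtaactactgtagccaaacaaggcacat

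The RUNX motif was present before 2 of the 10 start sites, those of *CSF1R* and *IL7R* shown above, and before 11.0% of the 35116 RefSeq start sites in the table. In *CSF1R* it lies at bases −71 to −66 from the start, and 2 adjoining PU.1 motifs follow at −20 to −15 and −14 to −9. In *IL7R* it lies at −43 to −38 and is followed after a single base by a GATA motif at −36 to −31. The PU.1 motif was present before 5 of the 10 start sites and 23.6% of all, the GATA motif before 2 and 9.17%, and the C/EBP motif before 1 and 9.05%. None of these exact letters occur in the window of *IL5RA*, but other spellings of the motifs were not searched. A match is a description of the letters, not of binding.

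Of the 12 genes for ligands of these receptors, 2 had at least 600 reads, *KITLG* and *TSLP*. *KITLG*, the ligand of KIT, was at 0.745 to 2.59 normalised CPM in all libraries, so the ligand transcript was present at a low level beside an abundant *KIT*. *TSLP* was at 1.25 to 1.88 in the CD34-expressing libraries and had at most 0.00769 in the CD34-silent ones.

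Among 29 other cytokine receptor genes, 22 had at least 600 reads, and 12 were higher and 2 lower in all CD34-silent than in all CD34-expressing libraries, beside 17.5% of all genes higher and 15.6% lower. The 2 with the highest mean normalised CPM over the 12 libraries, which takes no account of gene length, were *IL1RAP* and *IFNGR1*. *IL1RAP*, the shared chain of IL-1 family receptors, was at 15.0 to 22.1 in the CD34-expressing and 401 to 519 normalised CPM in the CD34-silent libraries. *IFNGR1*, a chain of the interferon gamma receptor, was at 27.6 to 43.1 and 78.9 to 117. *IL2RA*, named after its values were seen, was at 0 to 0.0578 and 40.6 to 66.1. Of 21 genes of proximal signalling, 6 were higher and 1 lower by the same reading, a share near the 33.1% of all genes that did not overlap. *PTPN6*, which encodes the phosphatase SHP-1 that dampens receptor signalling, was at 56.1 to 59.7, 90.0 to 119, 218 to 259 and 451 to 534 in the 4 sets in order, while *PTPN11*, which encodes the phosphatase SHP-2, lay between 192 and 325.

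STAT factors are known to switch on a set of genes, several of which feed back on the receptors. Among the pathway lists, the cell type markers left aside, this set had the most uniform direction. Of 8 such genes, 7 were higher in all CD34-silent than in all CD34-expressing libraries and 0 lower, beside 17.5% of all genes higher and 15.6% lower. *PIM1*, a kinase gene downstream of STAT5, was at 8.61 to 12.4 normalised CPM in the CD34-expressing libraries, at 269 to 329 in the CD34-silent, RUNX1T1-high libraries and at 397 to 446 in the CD34-silent, RUNX1T1-low libraries. *SOCS2*, a feedback inhibitor, was at 11.1 to 13.9, 82.7 to 97.1 and 48.6 to 51.9 over the same libraries. Between RUNX1T1-low and RUNX1T1-high libraries of the CD34-silent kind, the list was divided, with *SOCS1*, *PIM1*, *PIM2* and *OSM* higher and *CISH*, *SOCS2* and *SOCS3* lower. These lists were chosen with earlier results of these data known.

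**Figure D2:**
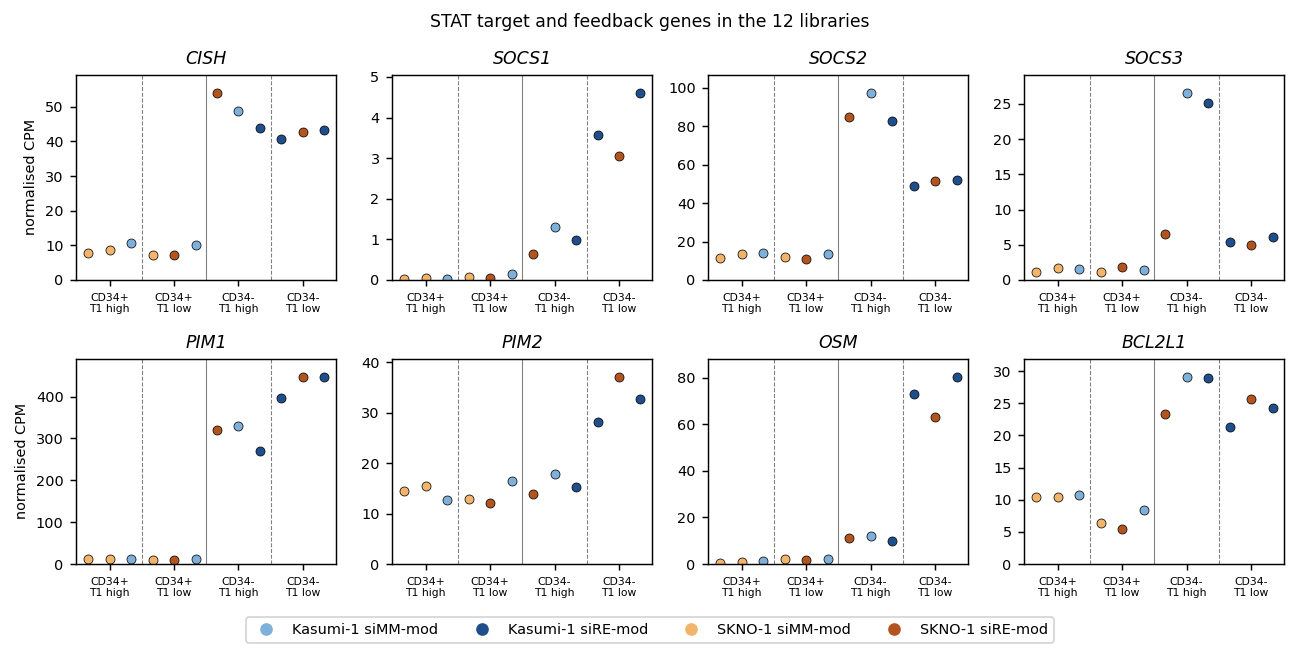
Normalised CPM (linear axes from 0) of the 8 STAT target and feedback genes in the 12 libraries, in the order of *CD34* and *RUNX1T1* (T1), coloured by label. All but *PIM2* lie higher in every library right of the middle line, where *PIM1* reaches 446.

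Among 11 regulators of receptor genes, 3 were higher and 1 lower in all CD34-silent libraries, which is also near the 33.1% of all genes. With low *RUNX1T1*, 7 were higher and 2 lower among the CD34-expressing libraries, beside 18.1% of all genes higher and 20.1% lower. Among the CD34-silent libraries 5 were higher and 2 lower with low *RUNX1T1*, beside 21.7% and 21.6%. *MYB*, a progenitor transcription factor gene, was at 514 to 526, 868 to 875, 545 to 611 and 605 to 684 normalised CPM in the 4 sets, and *RUNX1* at 383 to 411, 296 to 317, 249 to 274 and 141 to 156. *RUNX1* went downwards through the sets as *KIT* did, and its reads include those of the fusion transcript. *GATA2*, a progenitor and mast cell transcription factor gene named after its values were seen, was at 30.4 to 51.2 in the CD34-expressing libraries, 69.2 to 97.9 in the CD34-silent, RUNX1T1-high libraries and 306 to 351 in the CD34-silent, RUNX1T1-low libraries.

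Markers of the lineages in which these receptors are known moved along with them in part, and their part in the result was not tested. The 8 eosinophil markers summed to 30.1 to 34.0, 303 to 410, 23.5 to 37.6 and 263 to 314 normalised CPM in the 4 sets. Their sum was thus higher with low *RUNX1T1* on both sides of the *CD34* divide, whereas *IL5RA* differed mainly across that divide. Not every marker followed the sum, since *EPX* was lower with low *RUNX1T1* among the CD34-silent libraries. *EPX* and *CLC* were also higher in all CD34-silent than in all CD34-expressing libraries. *PRG3* and *CLC* had no reads in the first set. The 5 mast cell and basophil markers summed to 4.53 to 5.92, 9.25 to 10.4, 25.9 to 36.8 and 144 to 163, a sum highest where *CSF2RB* was highest. Most of the last sum was *CPA3*, at 121 to 135, and *HDC* was also highest there, at 4.11 to 5.43. *TPSAB1* and *TPSB2* were lower with low *RUNX1T1* among the CD34-expressing libraries and overlapped between the CD34-silent sets. *MS4A2* had no reads in the CD34-silent, RUNX1T1-high set. The 5 neutrophil markers summed to 2038 to 3058, 3562 to 7862, 123 to 233 and 104 to 124, highest where *CSF1R* was highest, with *LTF* at 0 in 3 sets. Of the 5 monocyte markers only *FCGR1A* was over 1 in every library, and the sum lay between 9.33 and 23.9. Unlike *CSF1R*, *FCGR1A* was lower with low *RUNX1T1* among the CD34-expressing libraries, at 13.2 to 17.7 against 22.1 to 23.8. Erythroid markers summed to at most 4.72, lymphoid markers to at most 3.41 with *MS4A1* at 0 in all libraries, and stromal markers to at most 0.219. The 6 markers of t(8;21) blasts summed to 11636 to 14269, 13684 to 23313, 4092 to 6232 and 2037 to 2317. All 6 were over 1 in every CD34-expressing library, and in each CD34-silent set 4 were over 1 in all its libraries. Most of each sum was *MPO*, at 1783 to 2056 in the last set. *MPO*, *RUNX1* and *POU4F1* were, like *CD34* by which the libraries were divided, lower in all CD34-silent libraries. *CD33* overlapped across the divide, at 38.1 to 76.4 and 45.1 to 71.7, and was higher with low *RUNX1T1* on both sides. *RUNX1T1*, by which the sets were drawn, overlapped across the divide as well. In bulk RNA, fewer cells that carry a transcript and less of it per cell cannot be told apart.

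The comparison by label asks whether siRE-mod changed the receptor genes in each line. In Kasumi-1, 0 of 8 tested members and 0 of 13608 genes, 0.0%, passed an adjusted p of 0.05 in edgeR's quasi-likelihood test, while 2 members, *CSF1R* and *CSF3R*, and 2435 genes had an unadjusted p under 0.05. The labelled groups did not overlap for 4 of the 8 members, *CSF3R*, *KIT*, *CSF1R* and *EPOR*, beside 21.6% of all genes tested. The median log2 fold change of the members was −0.81, and that of all genes tested was 0.02. In SKNO-1, 0 of 8 members and 0 of 13628 genes, again 0.0%, passed in edgeR, while *IL5RA*, *CSF2RB* and 1455 genes in all had an unadjusted p under 0.05. The groups did not overlap for *IL5RA*, *CSF2RB* and *KIT*, 3 of 8 members beside 12.1% of all genes tested, and the members' median log2 fold change was 0.07 beside 0.03 for all genes.

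Every labelled group holds libraries of different sets, so the spread against which the labels were tested includes the differences between sets. The counts of 0 depended on the tool and on single libraries. DESeq2 called 1163 of 13608 genes and 2 of 8 members in Kasumi-1, the members *CSF1R* (adjusted p = 0.00169) and *CSF3R* (0.0173). In SKNO-1 DESeq2 called 372 of 13628 genes and 2 of 8 members, *IL5RA* (adjusted p = 0.000124) and *CSF2RB* (0.00868). When siMM-mod replicate 3, the one CD34-silent library of its group, was left out of the Kasumi-1 fit, edgeR called 4250 of at most 13608 genes tested. Of the 8 members it called 4, *IL5RA*, *CSF2RB*, *CSF3R* and *CSF1R*. When siRE-mod replicate 1, the one CD34-expressing library of its group, was left out of the SKNO-1 fit, edgeR called 2535 of at most 13628 genes tested. Of the 8 members it called 3, *IL5RA*, *CSF2RB* and *CSF1R*. In both of these cases the labelled groups coincide with the *CD34* divide, and the siRNA and that divide cannot be told apart.

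**Figure D3:**
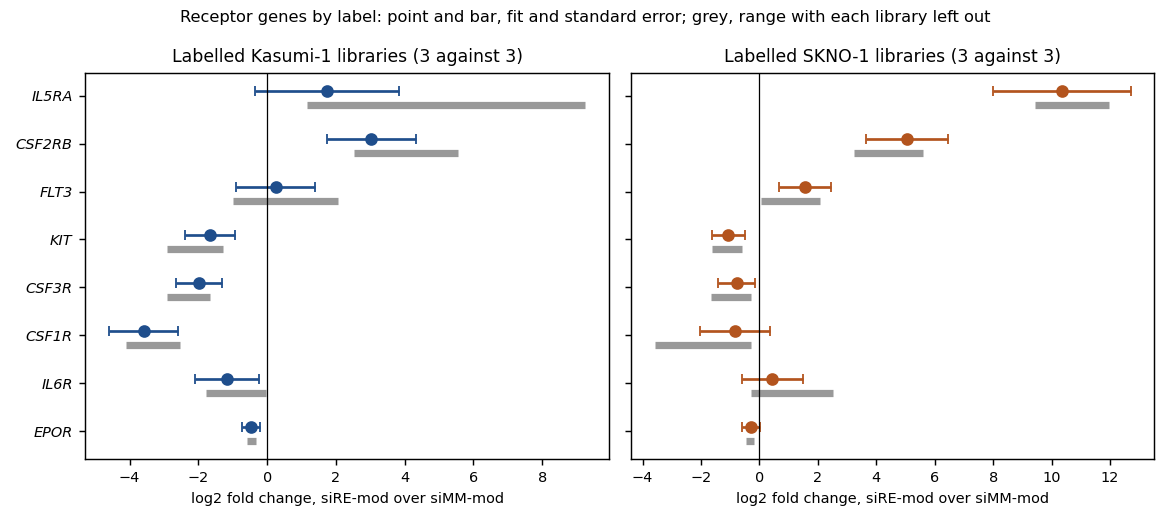
Log2 fold change (x axis) of the 8 tested members between libraries labelled siRE-mod and siMM-mod in each line, 3 against 3; points and bars are the edgeR fit and its standard error, and grey bars the range of the fit over the omission of each single library. The grey bar of *FLT3* in Kasumi-1 (−1.01 to 2.07) and that of *IL6R* in SKNO-1 (−0.30 to 2.51) cross 0.

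For the pathway lists, the number of genes past the threshold in edgeR's quasi-likelihood test between labels was 0 in both lines for partner chains, ligands, other receptors, proximal signalling, STAT targets and regulators alike. The median log2 fold change of the STAT targets was 0.80 over 8 genes in Kasumi-1 and 1.99 over 7 genes in SKNO-1. That of the other cytokine receptors was 0.87 and 0.68 over 18 genes in each line, and that of all genes tested 0.02 and 0.03. An unadjusted p under 0.05 in edgeR was reached by 1 of the 8 STAT targets in Kasumi-1, beside 2435 of 13608 genes. In SKNO-1 it was reached by 5 of the 7, beside 1455 of 13628 genes.

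Whether the siRNA effect differed between the lines was tested as an interaction over the 12 libraries. In edgeR 0 of 9 members and 0 of 15863 genes, 0.0%, passed, with 106 genes at an unadjusted p under 0.05, *IL5RA* among them (difference of log2 fold changes 8.65 ± 3.52, SE), and DESeq2 called 118 genes and 0 members. Because SKNO-1 was kept in GM-CSF, the receptor genes were also compared between the lines. In edgeR 0 of 9 members and 0 of 15863 genes, 0.0%, passed, with 2048 genes at an unadjusted p under 0.05, and DESeq2 called 366 genes. The lines overlapped for all 9 members, beside 0.687% of all genes for which they did not. *CSF2RB* was at 61.0 ± 114 normalised CPM (SD, n = 6) in the SKNO-1 and 112 ± 123 in the Kasumi-1 libraries, and its fitted log2 fold change, which averages the line difference on the log scale over the siMM-mod and siRE-mod labels and is not the ratio of these means, was −1.79 ± 0.95 (SE, adjusted p = 0.385, edgeR). By the same average, *IL5RA* had −4.92 ± 1.78 (adjusted p = 0.376 in edgeR and 0.0391 in DESeq2, where it was the single member called), and ranged from −5.73 to −1.19 with each library left out. Both labelled lines hold CD34-expressing and CD34-silent libraries in unequal numbers.

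The genes most like each member over the 12 libraries were sought among 13941 genes by the root mean square difference of centred log2 CPM over the same libraries for every gene, as a description. For *CSF3R* they were *MYO18A* (0.10), *DAGLA* (0.13) and *C5* (0.23), for *KIT* *ADA2* (0.21), *TNFSF13B* (0.23) and *SLC29A4* (0.26), and for *FLT3* *CASS4* (0.15), *P2RX7* (0.30) and *RAB38* (0.35). For *CSF1R* they were *AZU1* (0.28), a neutrophil granule gene, *KCNK12* (0.35) and AC118754.1 (0.37). The nearest to *CSF2RB* were *NKD2* (0.40), *MAP1A* (0.51) and *SOCS1* (0.55), and the nearest to *IL7R* were *CSF2RB* itself (0.45), *OSM* (0.66) and *MAP1A* (0.67). *IL5RA*, which spans the widest range of the members, was followed by *VIM* (0.61), *HORMAD1* (0.82) and *APOL4* (0.82), and *IL6R* by *PLB1* (0.43), *UGT3A2* (0.55) and *SYTL1* (0.61). The flat profile of *EPOR* was nearest to those of *TPGS2* (0.09), *ATP6V1H* (0.09) and *DTD2* (0.10). Among the members, *CSF3R* and *KIT* were the closest pair (0.29), followed by *CSF2RB* and *IL7R* (0.45).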

How the data were processed

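The authors trimmed reads with Trim Galore 0.6.5, aligned them to GRCh38 with STAR 2.7.10a and counted them over the exons of each gene (subread 1.6.5 in the submitters' processing notes, Rsubread 1.32.4 under R 3.5.1 in the headers). The strand setting is not given in the sources used here. The deposited tables hold raw counts, CPM and FPKM for 12 in vitro libraries, and in the deposited CPM and FPKM the counts are scaled to the library total and to exon length. The 4 in vivo libraries were not used here.

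Counts were fitted by label with edgeR 4.0.16 in R 4.3.3 (TMM, quasi-likelihood test, Benjamini-Hochberg over all genes with at least 600 reads in total in a fit, threshold 0.05). With 3 against 3 libraries an exact permutation test cannot go below 0.1, so none was used. On simulated counts with 200 genes changed by 2 on the log2 scale at a dispersion of 0.02, the fit of each comparison recovered 200 of 200 with 3 to 12 false calls. The libraries themselves had a common dispersion of 0.197 to 0.246, so this checks the code and not the power. DESeq2 1.42.0 and other settings were alternatives. Python 3.11.15, pandas 2.3.3 and matplotlib 3.10.9 made tables and figures. Members and lists were chosen with earlier results of these data known. Named genes were the members, their partner chains, *CD34*, *RUNX1T1*, the 2 genes of each list with the highest mean normalised CPM, and the 3 genes most like each member. Other genes of the lists, among them *IL2RA*, *GATA2*, the remaining STAT targets and single cell type markers, were named after their values were seen. Protein sequences are not analysed here.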

Additional observations from a re-analysis of the deposited data

How the results depend on the processing

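The number of genes called between labels was 0 in all 4 comparisons with edgeR under the other size factors, both other filters, the fold-change limit and, for the siRNA comparisons, the single fit of 12 libraries. DESeq2 called 1163 genes and 2 members in Kasumi-1, 372 and 2 in SKNO-1, 118 and 0 for the difference between the lines, and 366 and 1 between the lines, and the cause was not tested. Leaving out single libraries, the counts ranged from 0 to 4250 genes and from 0 to 4 members in Kasumi-1, from 0 to 2535 genes and from 0 to 3 members in SKNO-1, and from 0 to 7 genes between the lines.

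Replicate numbers do not pair the libraries (r of deviations −0.27 to −0.01), and with the replicate block 0 genes and 0 members were called in each comparison. The replicate block turned the difference between the lines for *CSF2RB*, which was not called, to −0.17. Signs also turned, in values not called with all libraries, without the libraries in which *RUNX1T1* overlaps between labels (*FLT3* −1.51 in Kasumi-1 and −0.24 in SKNO-1, *CSF1R* 0.15 in SKNO-1), and between the lines with no filter (*EPOR* −0.072, *IL6R* −0.12) or filterByExpr (*EPOR* −0.033, *IL6R* −0.054). Leaving out single libraries gave ranges across 0 for *FLT3* in Kasumi-1 (−1.01 to 2.07) and *IL6R* in SKNO-1 (−0.30 to 2.51). It did so for the difference between the lines for *CSF2RB* (−0.50 to 2.62), *FLT3* (−0.55 to 2.60) and *IL7R* (−3.61 to 2.88), and between the lines for *FLT3* (−1.58 to 0.064), *EPOR* (−0.043 to 0.12), *IL6R* (−0.92 to 0.65) and *IL7R* (−1.95 to 1.24). Without SKNO-1 siRE-mod replicate 3, *IL7R* had under 600 reads and gave no value. Read in deposited CPM, an alternative chosen after seeing the data, the numbers of members that did not overlap between sets were 7, 6 and 8 in place of 8, 6 and 8, with *EPOR* lost from the first and *CSF3R* in place of *EPOR* in the second. Depth limits only *IL5RA* and *IL7R* in the CD34-expressing libraries, where counts of 0 to 12 do not set a level.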
